A study of Homo sapiens with 12 samples.

Results

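The transfer RNA (tRNA) genes of human chromosome 6 were examined for their place in nucleolus-associated domains (NADs), the stretches of DNA that are recovered with purified nucleoli. Members were all genes of biotype tRNA that RefSeq assigns to chromosome 6 of the GRCh38 assembly, 155 in number. For 1 of them, TRA-CGC5-1, the table gives a position on another scaffold, so 154 genes with a place on the chromosome were analysed. They make up 35.9% of the 429 tRNA genes placed on chromosomes 1 to 22 and X. The rule itself uses biotype and chromosome only.

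A tRNA carries an amino acid to the ribosome and reads a codon of the messenger through its anticodon. Its gene is transcribed by RNA polymerase III from promoter elements that lie inside the gene, the A box and the B box, which the factor TFIIIC binds, and transcription stops at a run of T on the coding strand. The polymerase III system also makes 5S ribosomal RNA, and in several organisms tRNA genes have been seen to gather at or near the nucleolus. In humans the short arm of chromosome 6 holds the largest array of tRNA genes, interspersed with the main cluster of replication-dependent histone genes. A gene name such as TRS-AGA2-3 gives the amino acid letter (S, serine), the anticodon, a number for the mature sequence and a number for the gene copy with that sequence.

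The study profiled NADs in H9, an established line of human embryonic stem cells, in a naive state kept in RSeT medium and a primed state kept in mTeSR medium, with no other treatment in either. Nucleoli were pelleted from crosslinked and sonicated cells, and nucleolar and whole-cell DNA of each state were sequenced in 3 libraries each, 12 in all. The labels tie the 6 libraries of a state to 1 list of regions without scores, so the values below have no replicates and no error, and their depth is unknown. No test across cultures is possible, and every comparison between states or gene groups is a description of these lists.

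Apart from 20, the region limits lie on a grid of 10 kb, while the tRNA genes are 71 to 108 bp long (median 73 bp), and none of them crosses a grid line. Each gene therefore has the call of the 10 kb bin in which it lies. The 154 genes lie in 99 bins, and genes of 1 bin always share their call.

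Whole gene sequences could be read for 4 of the 154 genes, because those genes fall in the window before or after the start of a neighbouring gene in the RefSeq promoter table (GRCh38.p14). They are shown with the 30 bases that follow each gene to make the internal promoter visible, and they include both kinds of call that were most frequent, 1 gene in NADs of both states and 3 in primed NADs only. Capitals mark the A box (searched as TNGNNNANNNG within the first bases of the gene), the B box (searched as GTTCNANNC) and the first run of at least 4 T after the gene. Each sequence is on the strand that holds both boxes.
TRI-TAT2-2 (isoleucine, both states, chr6:27020346-27020469, plus strand): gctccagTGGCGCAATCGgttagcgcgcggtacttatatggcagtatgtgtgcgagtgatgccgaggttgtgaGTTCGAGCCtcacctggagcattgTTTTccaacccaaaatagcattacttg
TRI-AAT8-1 (isoleucine, primed only, chr6:27668583-27668686, plus strand): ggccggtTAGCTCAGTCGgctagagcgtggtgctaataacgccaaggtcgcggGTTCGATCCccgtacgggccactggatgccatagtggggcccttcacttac
TRA-AGC2-2 (alanine, primed only, chr6:28863655-28863756, minus strand): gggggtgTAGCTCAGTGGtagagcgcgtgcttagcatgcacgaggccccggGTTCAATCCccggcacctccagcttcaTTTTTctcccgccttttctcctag
TRL-AAG2-2 (leucine, primed only, chr6:28943592-28943703, minus strand): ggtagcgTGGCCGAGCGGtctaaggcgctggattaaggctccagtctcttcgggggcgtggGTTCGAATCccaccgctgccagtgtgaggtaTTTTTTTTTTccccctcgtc

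In all 4 genes the A box begins at base 8, whatever the call. The B box begins at base 52 of TRA-AGC2-2, 54 of TRI-AAT8-1, 62 of TRL-AAG2-2 and 74 of TRI-TAT2-2, the longest of them at 94 bp, whose family is known to carry an intron. The T run is 4, 5 and 10 bases long in TRI-TAT2-2, TRA-AGC2-2 and TRL-AAG2-2, and no run of 4 T is among the 30 bases shown after TRI-AAT8-1. Among all 35116 promoter windows of the table, each of which is longer than a tRNA gene, 78.4% hold the A box letters on either strand, 7.48% hold the B box letters, and 4.08% hold both on 1 strand. A match to these letters is a description of the sequence only.

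The first question was how many of the tRNA genes lay in NADs of each state. In primed cells 117 of 154 (76.0%) did, and in naive cells 89 (57.8%). Both lists held 72 genes (46.8%), the primed list alone 45 (29.2%), the naive list alone 17 (11.0%), and 20 (13.0%) lay in neither. Among the 6503 other RefSeq genes of at most 200 bp, a set that is as short and so touches a region as rarely, the primed list held 56.5% and the naive list 41.5%. Of the same short genes, 27.7% were in both lists, 28.8% in the primed list alone and 13.8% in the naive list alone. The tRNA genes thus stood above the short genes in both lists, by their share in both at once, and near them in the shares of a single list.

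Over all 58415 RefSeq genes the shares were 67.9% in primed and 61.9% in naive NADs, but most of these genes are long and touch a region more easily than a tRNA gene. Of all 10 kb bins of chromosome 6, 26.8% were in primed and 34.9% in naive NADs. The tRNA genes lay far above the primed share of their chromosome, 76.0% by gene and 73.7% by bin against 26.8%. Most of them, 144 of 154, lie between 26 and 29 Mb, where 62.0% of all bins were in primed and 52.3% in naive NADs. Short genes of chromosome 6 other than tRNA genes lay in primed NADs for 116 of 325 (35.7%) and the naive list for 103 (31.7%).

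The 275 tRNA genes of other chromosomes had similar values: the primed NADs held 221 (80.4%) and the naive NADs 150 (54.5%), and 129 (46.9%) were in both. The 85 tRNA genes of chromosome 1, which holds the next largest number, had 70 (82.4%) in the primed and 47 (55.3%) in the naive list.

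The second question was whether tRNA genes differ from the DNA between them. Of the 154 genes, 144 lie between 26 and 29 Mb, in 89 of the 300 bins of that stretch. In primed cells, 66 of the 89 bins with a tRNA gene (74.2%) were in NADs, against 56.9% of the 211 bins without one. In naive cells, 48 of 89 bins (53.9%) were, against 51.7%. Bins in NADs of both states came to 39 of 89 (43.8%), against 31.8%. Inside the array, the bins with tRNA genes thus lay above their surroundings in the primed list and almost level with them in the naive list. The difference was not tested, since neighbouring bins share regions.

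Within the same stretch, bins with more tRNA genes had higher shares. Bins with 1 tRNA gene were in primed NADs for 36 of 50 (72.0%), bins with 2 for 20 of 27 (74.1%), and bins with 3 or more for 10 of 12 (83.3%). The naive shares were 48.0%, 55.6% and 75.0%. None of the 12 bins with 3 or more tRNA genes lay outside both lists, while 10 of the 50 bins with 1 did. Bins with other genes but no tRNA or histone gene were at 59.3% (80 of 135) in primed and 47.4% (64 of 135) in naive NADs, and bins with no gene at 46.8% (22 of 47) and 42.6% (20 of 47).

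**Figure D1:**
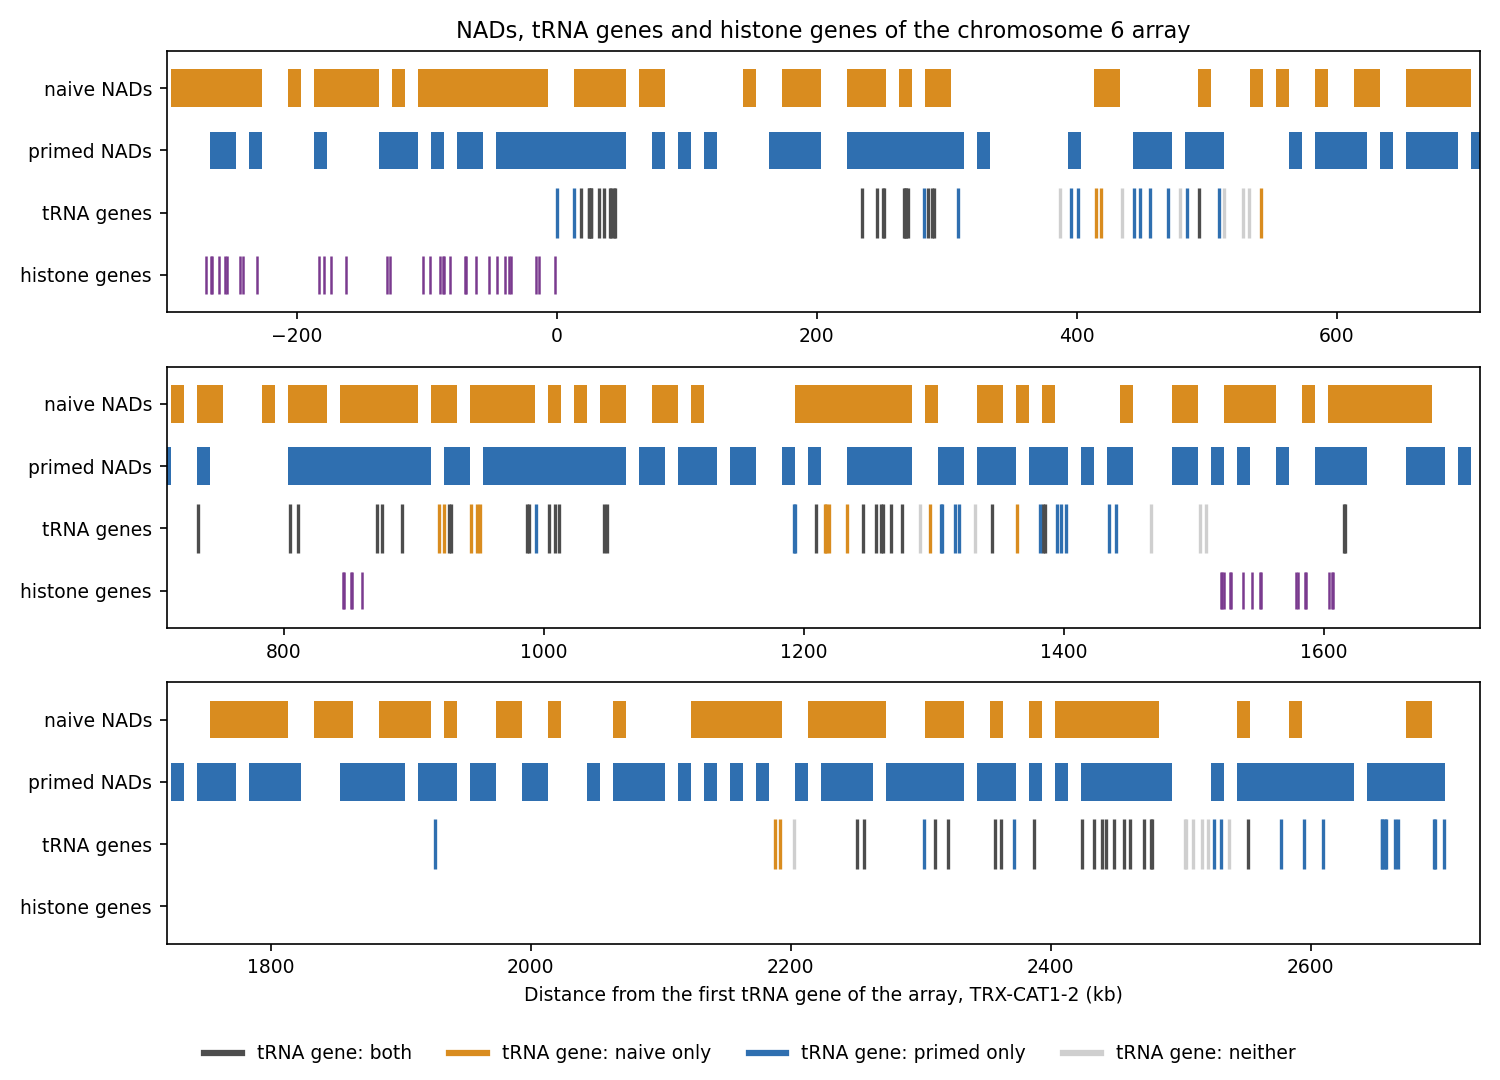
Map of the chromosome 6 array in 3 stacked rows, with the distance from TRX-CAT1-2 in kb along the x axis. Orange and blue bars are naive and primed NADs, ticks are tRNA genes coloured by the lists they lie in (both, naive only, primed only or neither), and purple ticks are histone genes. The last 12 tRNA genes on the right are in primed NADs only, and the 13 tRNA genes of the first cluster lie in 1 primed NAD.

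The third question was how the calls are laid out along the chromosome. Joined where neighbours were at most 100 kb apart, the genes formed 12 clusters, 7 of them with 2 or more members. The clusters differed in their calls, and the primed count was the higher in 7 of them, the naive count in 2, with 3 level.

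The cluster at the left end of the array, 13 genes in 45.0 kb from TRX-CAT1-2 (26286526) to TRW-CCA3-2 (26331515), lay in primed NADs throughout. A primed region of 100 kb (26240001 to 26340000) held all 13 genes and 7 histone genes. A naive region of 40 kb (26300001 to 26340000) held 11 of the 13. Of the 6 bins that the cluster spans, primed NADs covered 6 and naive NADs 4. The 2 genes outside that naive region were TRX-CAT1-2, a copy of the initiator methionine tRNA gene, and TRR-TCG4-1. TRR-TCG4-1, an arginine tRNA gene, ends just before the naive region begins, its centre 288 bp from the limit.

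The next cluster, 31 genes in 307 kb from TRL-CAG1-7 (26521208) to TRA-AGC14-2 (26828299), fell into a covered and a patchy part. Its first 13 genes, up to TRY-GTA6-1, lay in 1 primed region of 90 kb (26510001 to 26600000), and 11 of them also in naive NADs. TRY-GTA1-1 and TRY-GTA6-1, tyrosine tRNA genes, were in the primed region only. The other 18 genes, many of them for alanine and methionine tRNAs, were in the primed list for 9 and the naive list for 4, and 6 of them were in neither list. This cluster changed call most often, with 15 runs of like genes.

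The cluster from TRI-TAT2-2 (27020346) to TRK-TTT6-1 (27335062) had the highest naive share of the larger clusters, 20 of 21 genes (95.2%), with 16 (76.2%) in primed NADs. No gene of it lay outside both lists. The cluster spans 32 bins, of which 75.0% were in primed and 68.8% in naive NADs. It surrounds 5 histone genes, H2BC11 to H2AC12, which lay with 5 of the tRNA genes (TRP-CGG2-1 to TRI-AAT5-2) in a primed region of 110 kb (27090001 to 27200000). Another primed region of 110 kb (27240001 to 27350000) held 8 tRNA genes, from TRI-AAT9-1 to TRK-TTT6-1. The valine tRNA gene TRV-CAC2-1 was the only member in primed NADs alone, its centre 305 bp outside a naive region.

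The cluster from TRS-AGA2-2 (27478812) to TRQ-TTG3-3 (27795932), 33 genes in 317 kb, had 14 runs. Of its genes the primed NADs held 22 (66.7%) and the naive NADs 16 (48.5%), with 10 in both, 12 in primed only, 6 in naive only and 5 in neither. The cluster spans 33 bins, of which 60.6% were in primed and 51.5% in naive NADs. A naive region of 90 kb (27480001 to 27570000) held 11 genes, the serine tRNA genes TRS-AGA2-3 and TRS-AGA2-4 among them. Primed NADs covered 7 of these 11, including the run from TRS-AGA3-1 to TRR-TCT5-1, and left out 4 neighbours from TRS-AGA2-4 (27503039) to TRQ-CTG1-2 (27519600). At the cluster's right end, TRV-AAC1-5, TRQ-CTG6-1 and TRQ-TTG3-3 were in neither list.

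A pair of genes 343 bp apart, TRX-CAT1-7 and TRG-GCC2-3 (27902493 to 27902978), lay in NADs of both states. TRS-GCT5-1, a serine tRNA gene that stood alone at 28213037, was in a primed NAD only.

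The largest cluster, 43 genes in 515 kb from TRT-TGT1-1 (28474552) to TRL-AAG3-1 (28989083), had 34 genes (79.1%) in primed and 20 (46.5%) in naive NADs. These shares are near those of the DNA it spans. The cluster spans 52 bins, of which 75.0% were in primed and 46.2% in naive NADs. Its right-hand part changed call in long steps. The 11 neighbours from TRA-CGC2-1 to TRF-GAA5-1 (28673836 to 28764463) were in both lists, and 10 of them lay in a single naive region of 80 kb (28690001 to 28770000) and a single primed region of 70 kb (28710001 to 28780000). The next 5 genes, from TRA-TGC1-1 to TRF-GAA3-1 (28789770 to 28807905), were in neither list, and all 3 bins of that run were uncovered in both states.

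The last 12 genes, from TRA-AGC2-2 (28863685) to TRL-AAG3-1, were in primed NADs only, the longest run of this call on the chromosome. Over the 13 bins they span, primed NADs covered 12 and naive NADs 3. A primed region of 60 kb (28930001 to 28990000) held 9 of the genes, among them TRM-CAT3-1 and TRM-CAT3-2 for elongator methionine tRNA and TRL-AAG2-2, whose sequence is given above.

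**Figure D2:**
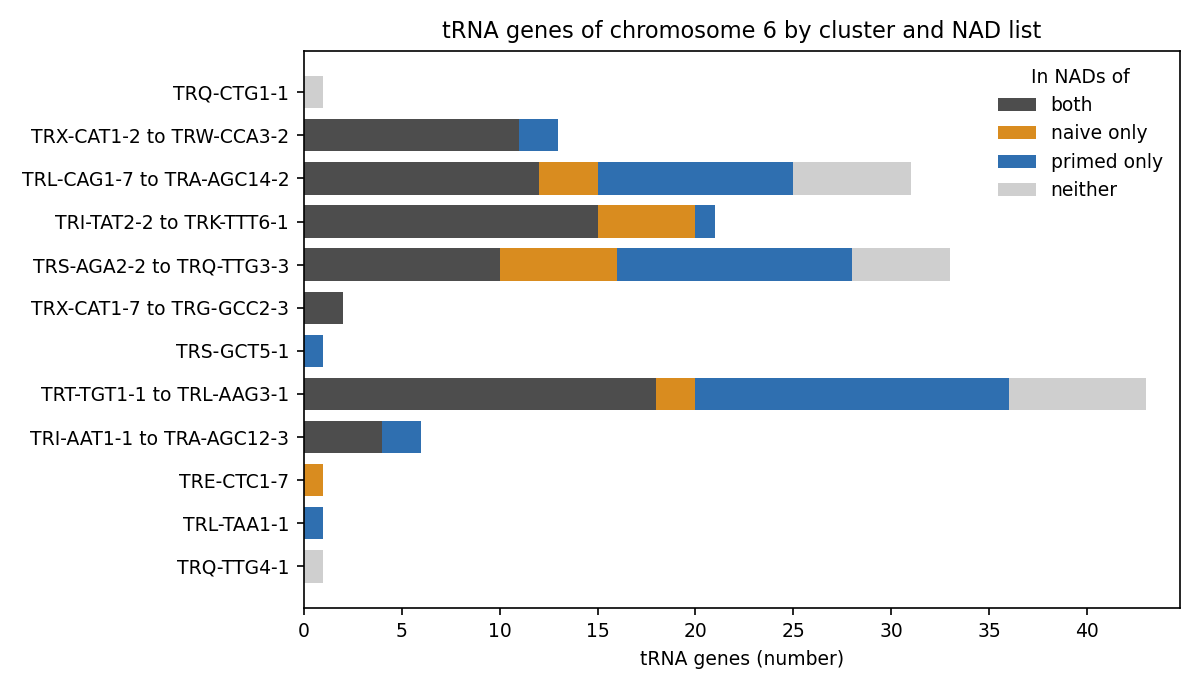
Number of tRNA genes (x axis) in each of the 12 clusters of chromosome 6 (y axis, first and last gene, in order of position), split by the lists that hold them. The cluster from TRI-TAT2-2 to TRK-TTT6-1 has 20 of 21 genes in naive NADs, and the largest cluster has 16 of 43 in primed NADs only.

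Outside the array, 6 genes near the centromere, from TRI-AAT1-1 (57800211) to TRA-AGC12-3 (57856473), lay in 1 primed region of 1000 kb (57460001 to 58460000). Of these, 4 were also in naive NADs, and TRA-AGC13-2 and TRM-CAT7-1 were not. The 4 genes that stand alone elsewhere had mixed calls. TRE-CTC1-7, a glutamate tRNA gene, lay in a naive region of a single bin (125780001 to 125790000). TRL-TAA1-1, for leucine, lay in a primed region of a single bin (144210001 to 144220000). The glutamine tRNA genes TRQ-CTG1-1 (18836171) and TRQ-TTG4-1 (145182723) were in neither list, and the nearest primed NAD was 153 kb from TRQ-TTG4-1. In all, the 10 genes outside 26 to 29 Mb were in the primed list for 7 and the naive list for 5.

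The 17 genes in naive NADs only were TRM-CAT5-1, a TRNAA-AGC copy at 26705377, TRA-AGC14-2, TRV-CAC6-1, TRS-CGA2-1, TRL-TAA4-1, TRV-AAC5-1, TRI-AAT5-3, TRS-AGA2-4, TRD-GTC2-7, TRS-TGA4-1, TRQ-CTG1-2, TRD-GTC3-1, TRV-AAC3-1, TRT-TGT1-1, TRL-AAG4-1 and TRE-CTC1-7. Of these, 11 lie between 27 and 28 Mb. They occupy 10 bins, so the naive-only call rests on few regions. Of the 45 genes in primed NADs only, 12 belong to the run at the right end of the array described above, and the rest form runs of 5 genes or fewer.

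The regions that held tRNA genes were longer than is usual on the chromosome. In naive cells 30 regions held the 89 genes, with a median length of 20.0 kb against 10.0 kb for all 3565 naive regions of chromosome 6. In primed cells 28 regions held the 117 genes, with a median of 30.0 kb against 10.0 kb for all 2005. A long region is more likely to hold a given gene, so the lengths are a description. Regions of at least 100 kb held 32 tRNA genes in primed cells and 4 in naive cells.

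Genes outside the NADs were mostly close to one, but the same distances were not taken for other uncovered positions. Between 26 and 29 Mb, 52.3% of all bins were in naive and 62.0% in primed NADs. The distances are therefore a description and not a trait of tRNA genes. Of the 65 genes outside naive NADs, 40 lay within 10 kb of a naive region, the median distance was 8.19 kb, and the farthest was TRA-TGC7-1, an alanine tRNA gene, at 27.1 kb. Of the 37 genes outside primed NADs, 27 lay within 10 kb, with a median of 4.55 kb. The centres of 12 genes were within 1 kb of a naive region limit and of 11 within 1 kb of a primed one. The closest were TRS-CGA2-1, 111 bp outside a primed region, and TRM-CAT5-2, 148 bp outside one. At a grid of 10 kb, these calls depend on where the grid falls.

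Neighbours of different bins shared some of their calls. Over all 154 genes, 57.8% were in naive and 76.0% in primed NADs, so genes far apart would also share many calls. That rate was not counted. Of the 87 pairs of neighbouring genes in 1 cluster but in different bins, 57 (65.5%) shared the naive call, 62 (71.3%) the primed call, and 40 (46.0%) both. The 55 pairs within a bin share every call by construction.

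The fourth question was whether closeness to other tRNA genes went with the calls. The 28 genes with another tRNA gene within 1 kb were in primed NADs for 24 (85.7%), the 103 with one at 1 to 10 kb for 78 (75.7%), the 18 with one at 10 to 100 kb for 13 (72.2%), and the 5 without one within 100 kb for 2. The naive shares of the first 3 groups were level, at 57.1%, 60.2% and 55.6%, and 1 of the 5 isolated genes was in a naive NAD. Counted within 50 kb, 3 of the 6 genes with no other tRNA gene were in primed NADs and 2 in naive NADs. The primed share of the others was level, at 75.0% of 24 genes with 1 to 4 others, 78.1% of 64 genes with 5 to 9, and 76.7% of 60 genes with 10 or more. The naive counts of these 3 groups were 17 of 24 (70.8%), 28 of 64 (43.8%) and 42 of 60, with no order. The few isolated genes thus had the lowest shares by both measures, and the rest showed an order only in the primed list and only by the nearest gene. Of the 5 genes without another within 100 kb, all but TRS-GCT5-1 lie outside the array. Their counts are to be read against all bins of chromosome 6, of which 26.8% were in primed and 34.9% in naive NADs. Closeness to other tRNA genes was not tested apart from place on the chromosome. Genes within 1 kb of each other often share a bin.

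The fifth question was how the tRNA genes compare with the histone genes among which they lie. The 55 replication-dependent histone genes of chromosome 6, which encode the proteins that package new DNA, had the opposite order of shares. They lay in naive NADs for 47 (85.5%) and in primed NADs for 34 (61.8%), against 57.8% and 76.0% of tRNA genes. Between 26 and 29 Mb, the 29 bins with a histone gene and no tRNA gene were in naive NADs for 25 (86.2%) and in primed NADs for 18 (62.1%). The 88 bins with a tRNA gene and no histone gene were at 54.5% (48) and 73.9% (65). A single bin held both kinds, TRX-CAT1-2 and the nearest histone gene H4C8, and it was in primed NADs only.

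Distance from the histone genes went with the naive share. Of the tRNA genes 10 to 100 kb from a histone gene, 23 of 29 (79.3%) were in naive NADs, at 100 kb to 1 Mb 59 of 102 (57.8%), and beyond 1 Mb 5 of 20. The primed shares were 72.4% (21), 74.5% (76) and 85.0% (17). Only 3 tRNA genes lay within 10 kb of a histone gene, TRX-CAT1-2, TRX-CAT1-7 and TRG-GCC2-3. They were all in primed NADs, and TRX-CAT1-7 and TRG-GCC2-3 also in naive NADs. The distance groups are also different places: of the 20 genes beyond 1 Mb, 13 were in primed NADs only, 10 of them in the run at the right end of the array.

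The histone groups themselves were not alike. H2AC1 and H2BC1, which stand apart to the left, were in neither list. The 32 genes from H1-1 to H4C8, left of the tRNA array, were in naive NADs for 30 and in primed NADs for 23. The 5 from H2BC11 to H2AC12 were in both lists, as were the tRNA genes on either side, TRS-GCT1-1 and TRH-GTG1-5. The 16 from H2BC13 to H2BC17 were in naive NADs for 12 and in primed NADs for 6. Next to that group, TRQ-CTG6-1 and TRQ-TTG3-3, 16051 and 11546 bp from H2BC13, were in neither list, while TRX-CAT1-7 and TRG-GCC2-3 on the other side were in both. Histone and tRNA genes that are neighbours therefore did not always share a call.

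**Figure D3:**
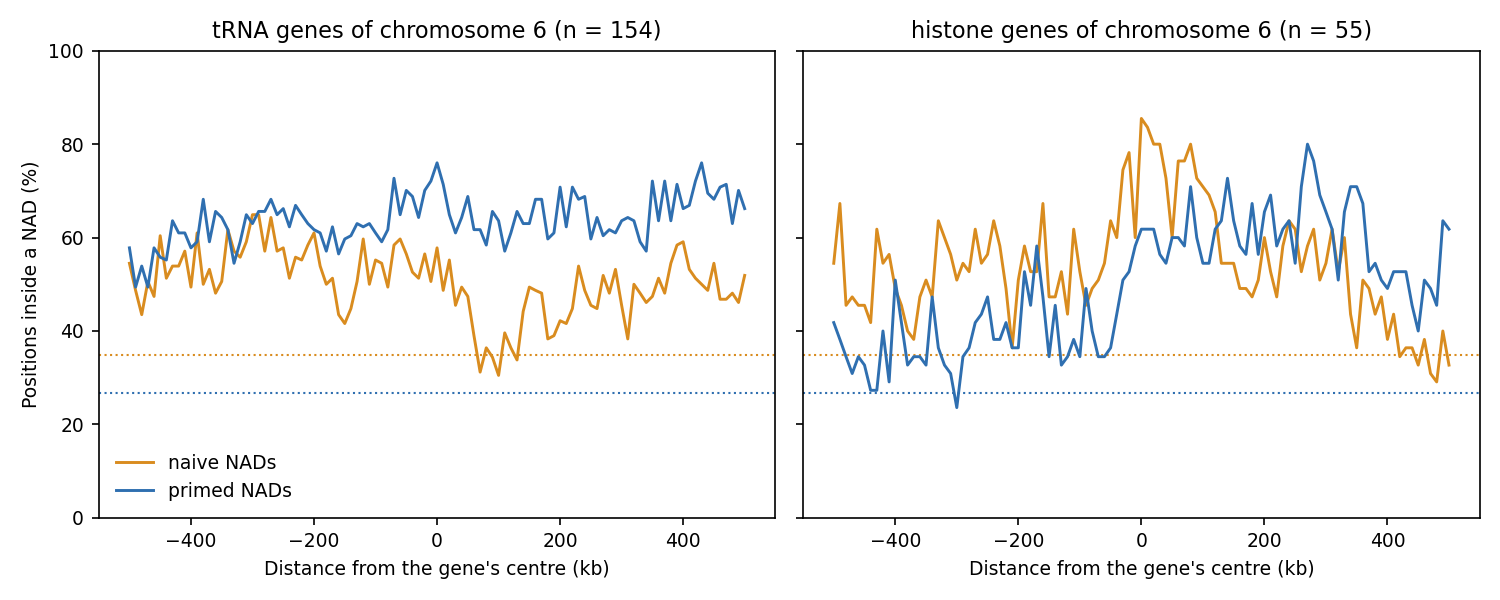
Percent of positions inside a NAD (y axis) at each distance along the chromosome from the gene's centre (x axis, kb, 10 kb steps), for the 154 tRNA genes and the 55 histone genes of chromosome 6. Solid lines are naive (orange) and primed (blue) NADs and dotted lines the share of all chromosome 6 bins, 34.9% and 26.8%. The primed line is at 76.0% at the tRNA genes and again at 430 kb to the right, and the naive line is highest at the histone genes, at 85.5%.

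The profile gives the shares around the genes, averaged over both sides. The primed share was 76.0% at the tRNA genes, 69.6% on average at 10 to 20 kb, 64.2% at 30 to 100 kb and 63.3% at 110 to 500 kb. The naive share was 57.8%, 52.8%, 47.0% and 50.7%. Single positions went against these means: the primed share was 76.0% also at 430 kb to the right, and the naive share was 64.9% at 300 kb to the left, above its value at the genes. The sides also differed, with a naive share of 55.2% at 100 kb to the left and 30.5% at 100 kb to the right. Around the histone genes the naive share was 85.5% at the genes and 75.4%, 65.0% and 50.6% at the same distances. Their primed share was 61.8%, 58.6%, 49.9% and 49.0%, with 80.0% at 270 kb to the right. The flanks of neighbouring genes overlap, so the points of a profile are not independent.

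By the amino acid that the tRNA carries, the 154 genes fall into 18 amino acids with 37 anticodons, and the methionine genes into initiator and elongator kinds. Over all 154 genes, 46.8% were in both lists, 76.0% in primed and 57.8% in naive NADs. Among the groups of more than 10 genes, arginine, serine and isoleucine had the largest shares in both lists at once, 81.8%, 70.6% and 66.7%. Genes of a group often share a region, so these shares do not rest on separate calls. Of 17 serine genes, which lie in 5 clusters, 15 were in naive and 14 in primed NADs, and none was outside both lists. The serine genes from TRS-AGA2-3 to TRS-AGA4-1 lie in 1 naive region (27480001 to 27570000). Of 11 arginine genes, the primed NADs held 11 and the naive NADs 9, and the 5 with anticodon ACG were in both. Of the ACG genes, TRR-ACG2-2 and TRR-ACG2-3 share a bin. Of 15 isoleucine genes, the primed NADs held 13 and the naive NADs 11.

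Alanine, the largest group, had 22 of 30 genes in primed NADs, 14 in the naive list and 6 in neither list. Glutamine genes had the lowest primed share among the groups of more than 10, 6 of 11 (54.5%), with 5 in naive NADs. Leucine genes were split between the lists: the primed NADs held 9 of 11 and the naive NADs 3, and TRL-CAG1-7 was the only one in both. The 4 leucine genes with anticodon CAA were all in primed NADs only, but these are not 4 separate calls. TRL-CAA3-1 and TRL-CAA2-1 share a bin, and TRL-CAA1-1 and TRL-CAA1-2 belong to the run at the right end of the array.

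The methionine kinds differed in number called. The initiator tRNA, which starts every protein, has 6 genes here with the same mature sequence by name, TRX-CAT1-2 to TRX-CAT1-7, in 4 clusters. All 6 were in primed NADs, and naive NADs held 4. The 8 elongator genes (TRM-CAT) were in the primed list for 5 and the naive list for 1, TRM-CAT5-1. Of these 8, 5 lie in the patchy part of the cluster described above, and amino acid groups that lie in 1 place share bins, so these counts were not compared by a test.

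**Figure D4:**
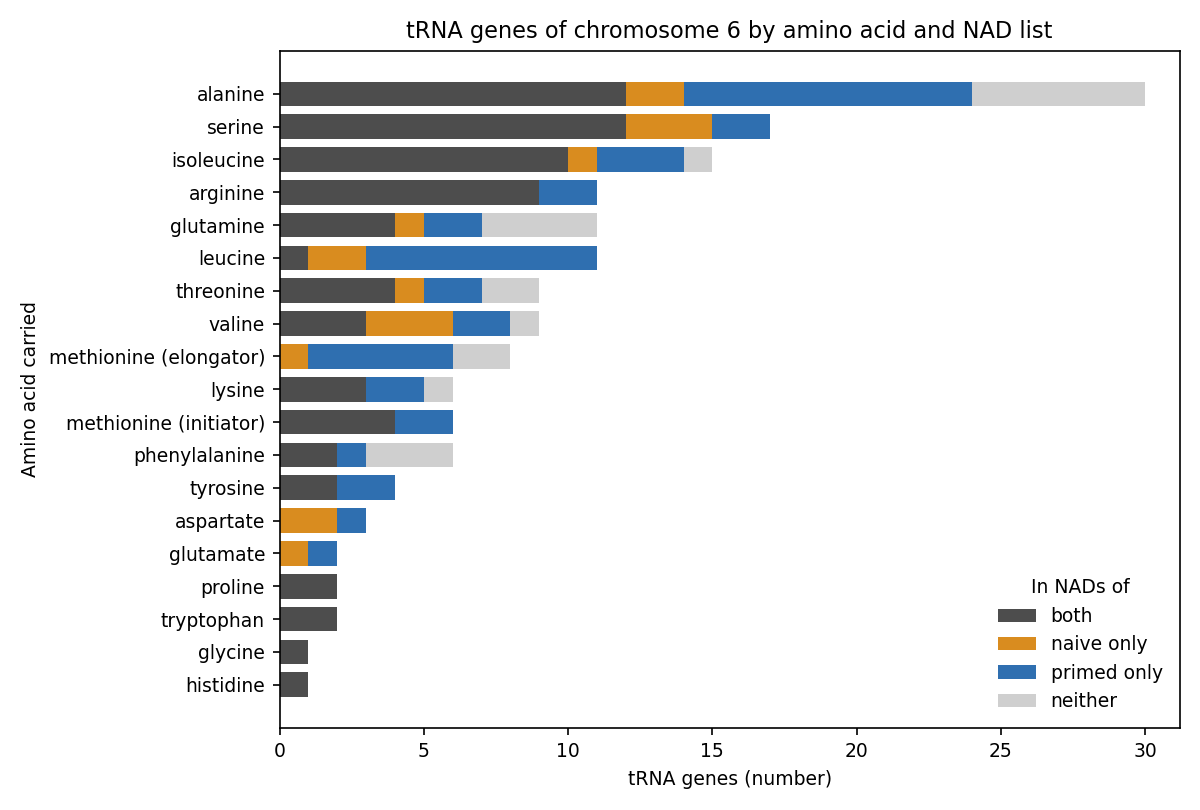
Number of tRNA genes of chromosome 6 (x axis) by the amino acid carried (y axis), split by the lists that hold them. Alanine has the most genes, 30, with 12 in both lists, and leucine has 8 of 11 genes in primed NADs only.

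Copies with the same mature sequence often had different calls. How often genes of unlike sequence share a call was not counted. Over all 154 genes, 46.8% were in both lists, 29.2% in primed only, 11.0% in naive only and 13.0% in neither. Genes of unlike sequence would thus often differ as well, and the counts below are not a trait of the copies. Of 22 such groups with 2 or more copies on the chromosome, 55 genes in all, the copies of 6 groups had 1 call and those of 16 groups had different calls. The 3 copies of TRR-ACG2 and the copies of TRR-ACG1 and TRI-TAT2, in 2 clusters each, were in both lists throughout. TRR-ACG2-2 and TRR-ACG2-3 share a bin, so their like call is fixed by that. The 4 copies of TRS-AGA2 had 3 calls: TRS-AGA2-1 and TRS-AGA2-3 were in both lists, TRS-AGA2-2 in primed NADs only and TRS-AGA2-4 in naive NADs only. The 3 copies of TRQ-CTG1 had 3 different calls, neither for TRQ-CTG1-1, naive only for TRQ-CTG1-2 and primed only for TRQ-CTG1-3.

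The patchy part of the cluster from TRL-CAG1-7 to TRA-AGC14-2 is laid out as a mirror image. From the coordinates, 8 pairs of genes lie at equal distances on either side of a point, to within 19 bp, and each pair has the same anticodon. The outermost are TRA-AGC14-1 and TRA-AGC14-2, 77.4 kb from the point, and the innermost TRM-CAT4-1 and TRM-CAT4-3, 15.4 kb from it. Such a layout is that of an inverted duplication, in which reads of near-identical copies are hard to place, and how such reads were handled is not given in the sources used here.

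Of the 8 pairs, 1 had the same call. The 16 paired genes were in both lists for 1, in naive NADs only for 3, in primed NADs only for 6 and in neither for 6. Genes of this stretch that are not partners would thus often differ as well, and their rate was not counted. TRA-AGC9-1 and its partner, a TRNAA-AGC copy at 26771080, were both in primed NADs only, and the other 7 pairs differed. TRI-AAT7-1 was in neither list and TRI-AAT7-2 in both. TRM-CAT5-1 was in naive NADs only and TRM-CAT5-2 in neither. TRA-AGC12-1 and TRA-AGC10-1 were in primed NADs only and their partners, at 26819109 and 26814339, in neither. Of the 8 pairs, 4 shared the naive and 3 the primed call.

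The mirrored stretch was covered less than the rest. Of its 16 paired genes 4 were in naive and 7 (43.8%) in primed NADs, and of its 16 bins 4 and 7. Without these genes, the primed NADs held 110 of 138 tRNA genes (79.7%) and the naive NADs 85 (61.6%). The part of read placement in the low share was not tested.

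**Figure D5:**
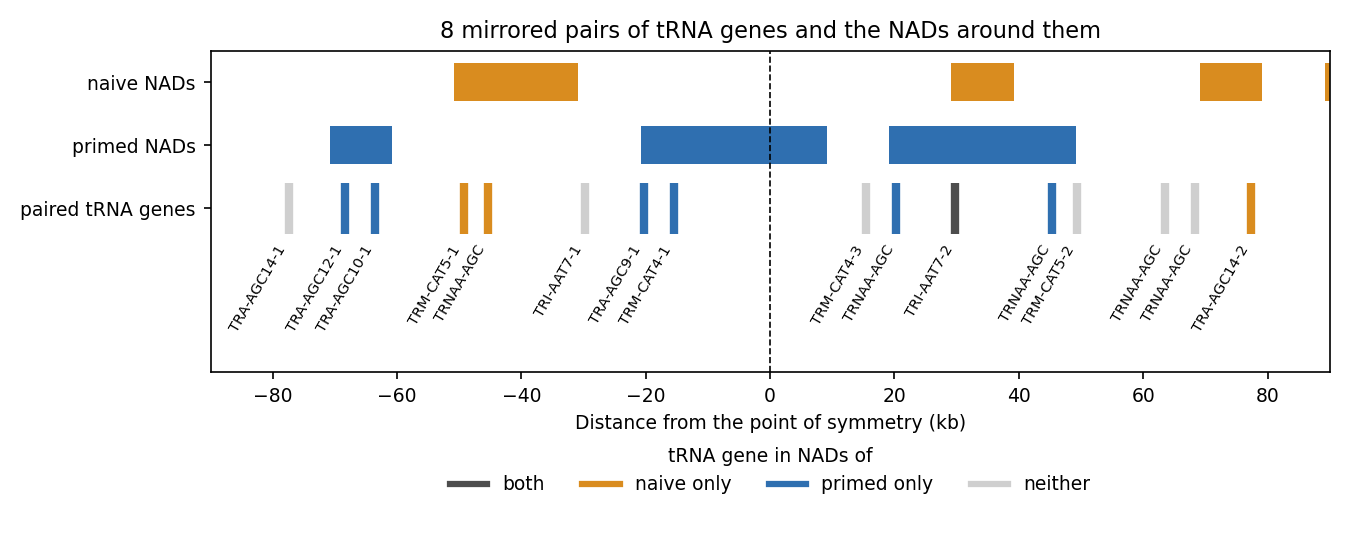
The mirrored stretch, with the distance from its point of symmetry in kb along the x axis. Orange and blue bars are naive and primed NADs, and thick ticks are the 16 paired tRNA genes, coloured by the lists they lie in. Only 1 of the 8 pairs, TRA-AGC9-1 with its partner, has the same colour on both sides.

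The genes of the machinery that transcribes tRNA genes were set beside them. Of 18 RNA polymerase III subunit genes, the primed NADs held 16 and the naive NADs 16, and 15 were in both. POLR3A, the largest subunit, was in primed NADs only, POLR3G, a subunit form known from stem cells, in naive NADs only, and POLR2K in neither. Of 13 genes for polymerase III factors and regulators, the primed NADs held 11 and the naive NADs 10. TBP, the TATA-binding protein, and the TFIIIC subunit gene GTF3C6, both on chromosome 6, were in both lists, and GTF3C5, another TFIIIC subunit gene, in primed NADs only. These are genes of full length, to be read against 67.9% and 61.9% of all genes.

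Among the other short genes of polymerase III, the primed NADs held 6 of 8 and the naive NADs 3, to be read, like the next counts, against 56.5% and 41.5% of short genes. The naive count is near that share. RN7SK, RMRP, RPPH1, RN7SL1 and RN7SL2 are longer than the limit of 200 bp for that set, so for them the comparison is rough. RN7SK, on chromosome 6 at 52995620 to 52995951, which encodes an inhibitor RNA of transcription elongation, was in primed NADs only, as was RMRP. RN7SL1, RN7SL2 and RPPH1, the RNAs of the signal recognition particle and of ribonuclease P, were in both lists. The 5 U6 genes of the RNU6 series were all in both, but RNU6-7 and RNU6-8 share a bin. The 17 genes of 5S ribosomal RNA, near-identical copies on chromosome 1 whose calls are uncertain for that reason, had 7 members in primed NADs and none in the naive list. They lie close together, between 228610266 and 228646158, and neighbours share bins, so these are not 17 separate calls. Those in primed NADs were RNA5S6 to RNA5S9, which share a bin, and RNA5S15 to RNA5S17, which share another.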

How the data were processed

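For each state the authors deposited 1 file of NADs (chromosome, start, end; hg38, per the submitters' processing notes), with no score. BWA, SAMtools 1.10 and SICER are named in those notes without roles or settings, and how 3 replicates became 1 list is not given in the sources used here. Each list was taken as that of its state from its name, which differs in its first word from the name in the labels. Genes came from RefSeq (GRCh38.p14, the same assembly). From the first step back in position on each chromosome, its rows belong to other scaffolds, and these 679 genes were left out. A gene was in a NAD when any base overlapped a region. Python 3.11.15 with numpy 2.4.6, pandas 2.3.3 and matplotlib 3.10.9 was used, and the overlap rule was tested on simulated data. Members and lists were chosen with earlier results of these data known. Named genes are the first and last of each cluster, those in naive NADs only, the ends of runs with 1 call, those within 1 kb of a region limit, those nearest histone genes, and examples per amino acid. The mirrored stretch was singled out after its calls were seen.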

Additional observations from a re-analysis of the deposited data

How the results depend on the processing

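Of 47 comparisons of a result with an alternative setting, 37 stayed within 1.5 times of the reported share or number, and 10 did not. The 37 include comparisons that could not move. Asking for whole genes inside a region changed no value, since no tRNA gene crosses a grid line. A primed share of 76.0% cannot rise 1.5 times, so merging or widening regions could not move it. With regions of at least 100 kb only, 2.60% of the tRNA genes were in naive NADs, 20.8% in primed NADs, 2.60% in both, 18.2% in primed NADs only and 0% in naive NADs only. With regions up to 50 kb apart merged, 77.3% were in both and 1.95% in naive NADs only. With genes within 10 kb of a region counted, 79.2% were in both, 4.55% in naive NADs only and 14.3% in primed NADs only. Merging or widening regions can only add genes of any kind to a list. Other short genes and bins were not counted at these settings, so the shares are not a trait of tRNA genes. The primed share exceeded the naive share under each of these settings and under the others tried: regions of at least 20 kb, gaps of 10 kb merged, whole genes inside a region, bins counted once, and members without the largest cluster or, chosen after seeing the data, without the mirrored genes. The number of clusters was 15 with neighbours joined up to 50 kb and 8 up to 200 kb. No paired analysis was possible because each state has 1 list made from all its libraries. The lists carry no depth, so a region missed for want of reads cannot be told from one that was absent.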

Other observations

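The 9 tRNA pseudogenes of chromosome 6, counted after the calls of the tRNA genes were seen, lay in the primed list for 7 and the naive list for 3, beside 56.5% and 41.5% of other genes of at most 200 bp. TRS-ACT1-1, TRK-TTT13-1 and TRF-GAA11-1 were in both lists, and TRI-AAT10-1, TRA-TGC9-1, TRA-AGC23-1 and TRUND-NNN1-1 in primed NADs only. The 7 in primed NADs all lie within the array of tRNA genes, while TRF-GAA8-1 (78958293) and TRE-TTC15-1 (162788982), which stand alone farther along the chromosome, were in neither.

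Protein-coding families that share the 25 to 34 Mb stretch with the array were counted beside all RefSeq genes, of which 67.9% were in primed and 61.9% in naive NADs. All 7 butyrophilin genes (BTN) and all 19 HLA genes were in primed NADs, 4 and 12 of them also in naive NADs. Of 16 olfactory receptor genes, the primed list held 15 and the naive list 13. Of 11 zinc finger genes of the ZNF and ZSCAN series, these lists held 7 and 8. The naive count of HLA genes (63.2%) and the primed count of zinc finger genes (63.6%) are near the shares of all genes. These genes are longer than tRNA genes, so their shares are not comparable with those of the tRNA genes.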
